A study of Homo sapiens with 6 samples.

Results

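NKX2-1, FOXA1, FOXA2, SOX2, SOX4, SOX9, SOX11, GATA6, TP63 and ETV5 are transcription factors that act in the specification, branching and differentiation of the lung epithelium. These 10 genes were taken by name from the 58735 genes of a deposited RNA-seq count table. All 10 had at least 1 count in some library, and 8 passed the filter on low counts that left 17514 genes for testing. The table held 6 libraries of H1155, a human large cell lung cancer line with neuroendocrine features, grown in culture without treatment. There were 3 libraries of wild-type (WT) cells and 3 of cells labelled GFI1-KO. GFI1 is a zinc finger repressor best known from blood cell development. The GFI1-KO cells had been made with Cas9 and paired guides directed at the GFI1 promoter region, and monoclonal GFP-positive cells had been sorted. How many clones or separate cultures stand behind the 3 libraries of a group was not given in the sources used here, so that the p-values measure the spread between these libraries, which may be technical, and a property of a clone cannot be told apart from the genotype.

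NKX2-1 marks the commitment of foregut endoderm to the lung and later drives surfactant genes in alveolar cells. FOXA1 and FOXA2 are pioneer factors that open chromatin in endoderm, and GATA6 works with them and with NKX2-1 in the early epithelium. SOX9 and ETV5 belong to the distal tip of the branching epithelium, where ETV5 is a target of FGF signalling, whereas SOX2 marks the proximal airway and TP63 its basal cells. SOX4 and SOX11, the SOXC factors, are common in neuronal and neuroendocrine precursors, and the comparison asked which of these lineage factors differed between WT and GFI1-KO cells.

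GFI1 itself did not show lower counts in the libraries labelled GFI1-KO. It had 153, 106 and 125 counts in WT and 174, 188 and 170 counts in GFI1-KO, and its log2 fold change was 0.31 (SE 0.12; edgeR adjusted p = 0.027). The GFI1-KO libraries all lay above the WT libraries. The call was lost with DESeq2 (adjusted p = 0.13), with the offsets described below (0.18, edgeR adjusted p = 0.22) and without WT replicate 2, at 0.21, WT replicate 3, at 0.28, or GFI1-KO replicate 2, at 0.27. No fit gave a lower GFI1 level in GFI1-KO, so that the label was not backed by the count of its targeted gene. A count over the whole gene does not tell which exons or transcripts the reads came from, and it does not measure GFI1 protein.

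The libraries held 14882914 to 16102215 counts in WT and 17503794 to 17692882 counts in GFI1-KO, and a limit of 3 counts in a library came to 0.170 to 0.202 CPM, the count scaled to the total of its library. A gene was called when its adjusted p was 0.05 or less. By this rule 36.5% of the tested genes were higher and 35.9% lower in the GFI1-KO libraries. For 74.4% of the tested genes, the WT and GFI1-KO ranges of normalized counts were separate. Fold changes followed the GC content of the genes. Their median on the log2 scale was -0.40 for genes under 45% GC, 0.20 for genes of 50% to 55% GC and 0.71 for genes of at least 60% GC. The fit was therefore repeated with offsets for the GC content and length of each gene, in which 32.5% of the tested genes were higher and 28.2% lower. Counts of called genes in each list below are to be read against these shares. Where the offsets changed the call or direction of a gene named below, or moved its log2 fold change by more than 1.5 times, the value with them stands beside it. Where the trend came from was not tested.

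Promoter sequences are shown for FOXA1, NKX2-1 and SOX4, the 3 called factors for which a promoter sequence was at hand. Each sequence is from the RefSeq promoter table (build GRCh38.p14), runs 5′ to 3′ on the strand of the gene and covers 250 bases before to 50 bases after a transcription start. Capitals mark AATC, the core of the DNA sequence that GFI1 is known to recognise, or its reverse complement GATT.
FOXA1: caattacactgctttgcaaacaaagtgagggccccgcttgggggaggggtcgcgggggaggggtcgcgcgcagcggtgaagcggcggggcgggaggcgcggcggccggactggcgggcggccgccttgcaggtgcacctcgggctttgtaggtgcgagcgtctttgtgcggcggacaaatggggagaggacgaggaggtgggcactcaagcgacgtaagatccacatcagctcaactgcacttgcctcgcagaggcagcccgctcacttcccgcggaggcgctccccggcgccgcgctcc
NKX2-1 upstream start: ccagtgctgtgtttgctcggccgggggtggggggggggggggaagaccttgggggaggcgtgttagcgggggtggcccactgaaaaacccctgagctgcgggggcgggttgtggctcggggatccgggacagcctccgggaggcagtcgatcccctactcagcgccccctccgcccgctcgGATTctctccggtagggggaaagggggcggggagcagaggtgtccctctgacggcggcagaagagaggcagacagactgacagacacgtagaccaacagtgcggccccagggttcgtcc
NKX2-1 downstream start: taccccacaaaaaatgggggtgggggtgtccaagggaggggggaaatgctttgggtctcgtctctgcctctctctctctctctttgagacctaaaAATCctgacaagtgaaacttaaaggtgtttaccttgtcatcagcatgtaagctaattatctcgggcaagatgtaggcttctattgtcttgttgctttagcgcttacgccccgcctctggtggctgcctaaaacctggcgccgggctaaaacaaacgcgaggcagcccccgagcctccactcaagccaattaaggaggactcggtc
SOX4: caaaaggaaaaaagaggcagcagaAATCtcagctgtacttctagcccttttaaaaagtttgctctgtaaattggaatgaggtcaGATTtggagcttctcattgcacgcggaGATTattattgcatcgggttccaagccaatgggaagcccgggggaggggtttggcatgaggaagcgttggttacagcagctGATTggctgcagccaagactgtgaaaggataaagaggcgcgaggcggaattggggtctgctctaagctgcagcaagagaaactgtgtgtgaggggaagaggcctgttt
The FOXA1 promoter (chr14:37595200-37595499, minus strand) held no match and had a GC content of 69.3%. The upstream NKX2-1 promoter (chr14:36520183-36520482, minus strand) held 1 match at 69.0% GC, and the downstream promoter (chr14:36519507-36519806, minus strand) held 1 match at 52.0% GC. The SOX4 promoter (chr6:21593501-21593800, plus strand) held 4 matches at 49.3% GC. The promoters of SOX2 and GATA6 held 1 match each and that of TP63 held 4. A match of this kind is common, as 69.0% of the 35116 promoters in the table held at least 1, with a median of 1. The longer word AAATCA, which contains AATC, was found on either strand in 13.2% of the promoters and among these factors in that of TP63. These matches describe the letters of the windows and not binding. The GC contents are likewise those of the windows and not those of the genes, on which the offsets rest.

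Among the 10 factors, 3 were called higher (NKX2-1, FOXA2 and SOX9), 4 were called lower (FOXA1, SOX4, SOX11 and ETV5), 1 was tested and not called (GATA6) and 2 were too low to test (SOX2 and TP63). Against the 36.5% higher and 35.9% lower among all tested genes, 3 and 4 of 8 is not a result about the factors as a set. The groups did not overlap for any of the 8, a separation seen for 74.4% of all tested genes. With the GC and length offsets, 1 was higher and 7 were lower, and the factors with the same direction and call in both fits were SOX9, FOXA1, SOX4, SOX11 and ETV5. The median log2 fold change of the 8 tested factors was -0.23, against 0.00 for all tested genes, and -0.27 against 0.02 with the offsets. The largest change was that of SOX11, 2.79-fold, and the other called changes were between 1.12-fold and 1.62-fold.

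**Figure D1:**
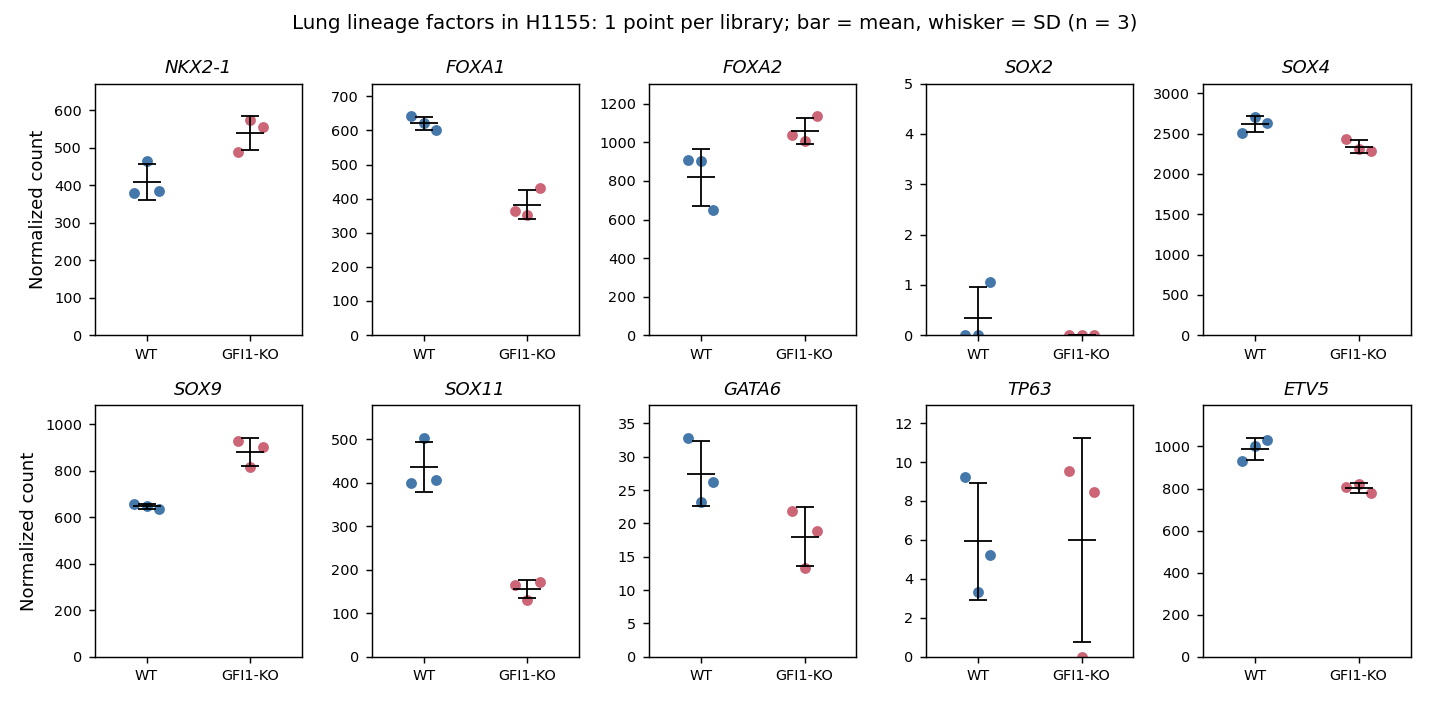
Normalized counts (TMM scaling, vertical axes starting at 0) of the 10 lung lineage factors in the 3 WT and 3 GFI1-KO libraries of H1155. Each point is a library, the wide bar is the mean and the whiskers are the SD (n = 3). WT and GFI1-KO points are separated for the 8 tested factors, while SOX2 and TP63 lie near 0 in both groups.

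NKX2-1 (ENSG00000136352, hg38 chr14:36516392-36521149, minus strand) had 378, 464 and 385 normalized counts in WT and 489, 572 and 555 in GFI1-KO. Its mean rose from 409 ± 47.7 (SD, n = 3) to 539 ± 44.1 (SD, n = 3), and the lowest GFI1-KO library lay above the highest WT library. The log2 fold change was 0.40 (SE 0.08, 95% interval 0.23 to 0.57; edgeR adjusted p = 8.0e-05). NKX2-1 has a GC content of 60.6%, and with the offsets its log2 fold change was -0.21 (95% interval -0.37 to -0.05; edgeR adjusted p = 0.020). The direction of NKX2-1 was thus not settled by these libraries. Of the 50-base words in its transcripts, 29.5% also occurred in other genes, mostly in a same-strand gene that overlaps it, listed as AL132857.1 and at 0 counts in every library. GENCODE names this gene SFTA3 under the same ID (ENSG00000257520), whereas the SFTA3 counted below has another ID (ENSG00000229415). How reads from this shared stretch were assigned was not given in the sources used here, and the NKX2-1 count is uncertain for that reason.

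Among the neighbours of NKX2-1, the antisense gene NKX2-1-AS1 had 7, 1 and 9 counts in WT and 19, 9 and 7 in GFI1-KO, which was too low to test. SFTA3, a surfactant-associated gene on the same strand, had means of 86.9 ± 11.1 and 82.7 ± 10.2 normalized counts (SD, n = 3), with a log2 difference of -0.07 (edgeR adjusted p = 0.70; 0.16 and not called with the offsets). NKX2-8, the homeobox paralogue beside it, had means of 17.4 ± 5.12 and 24.0 ± 4.36 normalized counts, with a log2 difference of 0.47 that did not pass (edgeR adjusted p = 0.20; -0.30 and not called with the offsets).

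FOXA1 (ENSG00000129514, hg38 chr14:37589984-37596059, minus strand) had 641, 621 and 602 normalized counts in WT and 363, 353 and 432 in GFI1-KO. Its mean fell from 621 ± 19.3 (SD, n = 3) to 383 ± 43.2 (SD, n = 3), and the 3 WT libraries were well above the 3 GFI1-KO libraries. The log2 fold change was -0.70 (SE 0.07, 95% interval -0.85 to -0.55; edgeR adjusted p = 3.8e-09), a 1.62-fold lower level. With the offsets FOXA1 remained lower, at -0.80 (edgeR adjusted p = 1.0e-09). TTC6, which overlaps FOXA1 on the opposite strand, fell from 66.3 ± 12.3 to 24.6 ± 2.69 normalized counts (log2 fold change -1.42, edgeR adjusted p = 5.7e-06). MIPOL1, 37623 bases away, fell from 358 ± 19.5 to 199 ± 23.0 (log2 fold change -0.85, edgeR adjusted p = 7.3e-09; -0.35 with the offsets). FOXA1, TTC6 and MIPOL1 were thus each lower in GFI1-KO, as were 35.9% of all tested genes (28.2% with the offsets). The locus as a whole was not tested. Whether the counting used the strand of the reads was not given, so reads of FOXA1 and TTC6 where they overlap cannot be told apart, although TTC6 had 51 to 68 counts where FOXA1 had 561 to 626 in WT.

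FOXA2 (ENSG00000125798, hg38 chr20:22581005-22585455, minus strand) had 909, 902 and 650 normalized counts in WT and 1038, 1005 and 1135 in GFI1-KO. Its mean rose from 820 ± 148 (SD, n = 3) to 1059 ± 67.4 (SD, n = 3), without overlap. This was a log2 fold change of 0.37 (SE 0.08, 95% interval 0.20 to 0.54; edgeR adjusted p = 2.1e-04). WT replicate 3 was the lowest library by far, and without it the log2 fold change was 0.22. FOXA2 has a GC content of 59.1% and, as for NKX2-1, its direction turned under the offsets, to -0.19 (95% interval -0.35 to -0.03; edgeR adjusted p = 0.034). The nearest tested gene, LINC01747, had means of 41.9 ± 8.42 and 50.2 ± 3.12 normalized counts and was not called (edgeR adjusted p = 0.30).

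The paralogues FOXA1 and FOXA2 were then compared within each library, since a ratio of both genes does not depend on the scaling between libraries. Counts of FOXA1 per base of its gene model were 0.461, 0.450 and 0.606 of those of FOXA2 in WT. In GFI1-KO the ratios were 0.229, 0.229 and 0.249. FOXA2 was the more abundant paralogue in all 6 libraries, and the share of FOXA1 was lower in each GFI1-KO library than in any WT library. The ratio differed 2.13-fold between the groups (log2 difference -1.09, exact two-sided permutation p = 0.10, the smallest p that 3 against 3 libraries can give; 0.10 after adjustment over the 2 pairs tested). Because the GC contents are 50.4% for FOXA1 and 59.1% for FOXA2, this ratio still holds the GC trend. With the offsets both were lower, FOXA1 by a log2 fold change of -0.80 and FOXA2 by -0.19, with intervals that did not overlap.

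GATA6 (ENSG00000141448, hg38 chr18:22169443-22202528, plus strand), the GATA factor of early lung endoderm, was the lowest of the tested factors. It had 32, 21 and 25 counts in WT and 23, 14 and 20 counts in GFI1-KO. The normalized means were 27.4 ± 4.87 and 18 ± 4.38 (SD, n = 3). The log2 difference of -0.61 did not pass (95% interval -1.24 to 0.03; edgeR adjusted p = 0.080), and at this depth its interval held both no difference and a fall by 1.24 on the log2 scale. With the offsets it was -0.93 and passed (edgeR adjusted p = 0.011).

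SOX11 (ENSG00000176887, hg38 chr2:5692667-5701385, plus strand) changed most. It had 400, 503 and 406 normalized counts in WT and 166, 132 and 171 in GFI1-KO. The mean fell from 436 ± 57.4 (SD, n = 3) to 156 ± 21.4 (SD, n = 3), and the lowest WT library was more than 2-fold above the highest GFI1-KO library. SOX11 had a log2 fold change of -1.48 (SE 0.11, 95% interval -1.70 to -1.26; edgeR adjusted p = 1.7e-12), and -1.41 with the offsets (edgeR adjusted p = 2.2e-11).

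SOX4 (ENSG00000124766, hg38 chr6:21592768-21598619, plus strand), also a SOXC factor, had 2510, 2703 and 2632 normalized counts in WT and 2437, 2305 and 2278 in GFI1-KO. The mean fell from 2615 ± 98.0 (SD, n = 3) to 2340 ± 84.7 (SD, n = 3), a small change in which the groups lay next to each other without overlap. For SOX4 the log2 fold change was -0.16 (SE 0.04, 95% interval -0.24 to -0.08; edgeR adjusted p = 7.0e-04) and -0.29 with the offsets (edgeR adjusted p = 3.2e-07). CASC15, a long noncoding RNA 66153 bases away on the same strand, was lower (34.9 ± 12.5 against 18 ± 5.86 normalized counts, log2 fold change -0.94, edgeR adjusted p = 0.011), a call that was lost with DESeq2 (adjusted p = 0.058), with the offsets (-0.53), and without WT replicate 2 (-0.67) or GFI1-KO replicate 1 (-0.70).

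Counts per base of SOX4 were 9.34, 8.01 and 9.66 times those of SOX11 in WT and 21.9, 26.1 and 19.8 times in GFI1-KO. The ratio was 2.50-fold higher in GFI1-KO (log2 difference 1.32, exact two-sided permutation p = 0.10, the smallest possible; 0.10 after adjustment over the 2 pairs). SOX4 therefore exceeded SOX11 in all 6 libraries, and by more in each GFI1-KO library than in any WT library. Because the GC contents are 52.5% for SOX4 and 48.6% for SOX11, this ratio also holds the GC trend. With the offsets the log2 fold changes were -0.29 for SOX4 and -1.41 for SOX11, with intervals that did not overlap. SOX12, the third SOXC gene, had means of 1106 ± 56.5 and 1595 ± 60.6 normalized counts, with a log2 fold change of 0.53 that turned to -0.08 under the offsets.

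**Figure D2:**
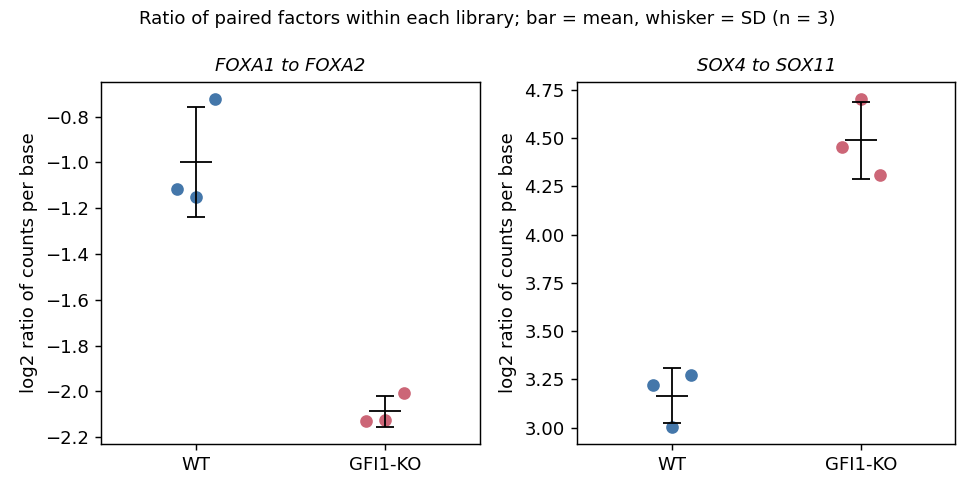
Log2 ratio of counts per base of gene model between FOXA1 and FOXA2 (left) and between SOX4 and SOX11 (right) within each library, by group. Points are libraries, the wide bar is the mean and the whiskers are the SD (n = 3). The WT mean of FOXA1 to FOXA2 was -0.997 and the GFI1-KO mean -2.09, and those of SOX4 to SOX11 were 3.17 and 4.49.

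SOX9 (ENSG00000125398, hg38 chr17:72121020-72126420, plus strand), the factor of the distal tip, had 658, 649 and 634 normalized counts in WT and 927, 815 and 903 in GFI1-KO. The mean rose from 647 ± 12.3 (SD, n = 3) to 882 ± 59.0 (SD, n = 3), with every GFI1-KO library above every WT library. The log2 fold change was 0.45 (SE 0.06, 95% interval 0.32 to 0.57; edgeR adjusted p = 2.1e-07), and 0.32 with the offsets (95% interval 0.19 to 0.44; edgeR adjusted p = 5.6e-05). SOX9 was the only tested factor that was higher in both fits. LINC01152, 79723 bases away on the same strand, was also higher (41.2 ± 8.0 against 61.6 ± 5.54 normalized counts, log2 fold change 0.58, edgeR adjusted p = 0.015). That call was lost with DESeq2 (adjusted p = 0.086) and without WT replicate 1 (0.44) or GFI1-KO replicate 2 (0.52). SOX9-AS1, which overlaps SOX9 on the opposite strand, had means of 10.6 ± 7.55 and 11.05 ± 1.41 normalized counts (log2 difference 0.06, edgeR adjusted p = 0.91; 0.43 and not called with the offsets).

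SOX2 (ENSG00000181449, hg38 chr3:181711924-181714436, plus strand), the proximal airway factor, had 0, 0 and 1 counts in WT and 0, 0 and 0 counts in GFI1-KO. SOX2-OT, the long noncoding gene around it, had 0, 0 and 2 counts in WT and 0, 0 and 0 counts in GFI1-KO. SOX2 was thus not detectable beyond a stray count, with a limit of 0.170 to 0.202 CPM in a library.

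TP63 (ENSG00000073282, hg38 chr3:189631416-189897279, plus strand), the basal cell factor, had 9, 3 and 5 counts in WT and 10, 0 and 9 counts in GFI1-KO. The groups overlapped throughout, and no test was made. P3H2, a collagen prolyl hydroxylase gene 59449 bases away, had means of 1.76 ± 1.58 and 24.0 ± 6.96 normalized counts (log2 fold change 3.67, edgeR adjusted p = 1.4e-06). Its counts were 3, 2 and 0 in WT and 29, 30 and 17 in GFI1-KO. P3H2 passed the filter through its GFI1-KO counts, and the size of its change rests on WT counts near the limit.

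ETV5 (ENSG00000244405, hg38 chr3:186046308-186110318, minus strand), the PEA3 factor downstream of FGF receptors, had 931, 1001 and 1032 normalized counts in WT and 809, 823 and 778 in GFI1-KO. The mean fell from 988 ± 51.7 (SD, n = 3) to 804 ± 23.1 (SD, n = 3), with no overlap. The log2 fold change was -0.30 (SE 0.06, 95% interval -0.41 to -0.18; edgeR adjusted p = 2.8e-05) and -0.25 with the offsets (edgeR adjusted p = 2.8e-04). DGKG, a diacylglycerol kinase gene that overlaps ETV5 on the same strand, fell from 93.0 ± 5.35 to 17.7 ± 7.15 normalized counts (log2 fold change -2.39, edgeR adjusted p = 1.7e-09). Reads from the stretch that both share cannot be told apart.

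Over all 10 factors, 50 genes lay within 100 kb, of which 18 overlapped a factor and 10 could be tested. Of these 10, 2 were higher (P3H2 and LINC01152), 4 were lower (TTC6, MIPOL1, CASC15 and DGKG) and the others were not called. With the offsets CASC15 was not called either. Against the 36.5% higher and 35.9% lower among all tested genes, 2 and 4 of 10 is not a result about the neighbours as a set.

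**Figure D3:**
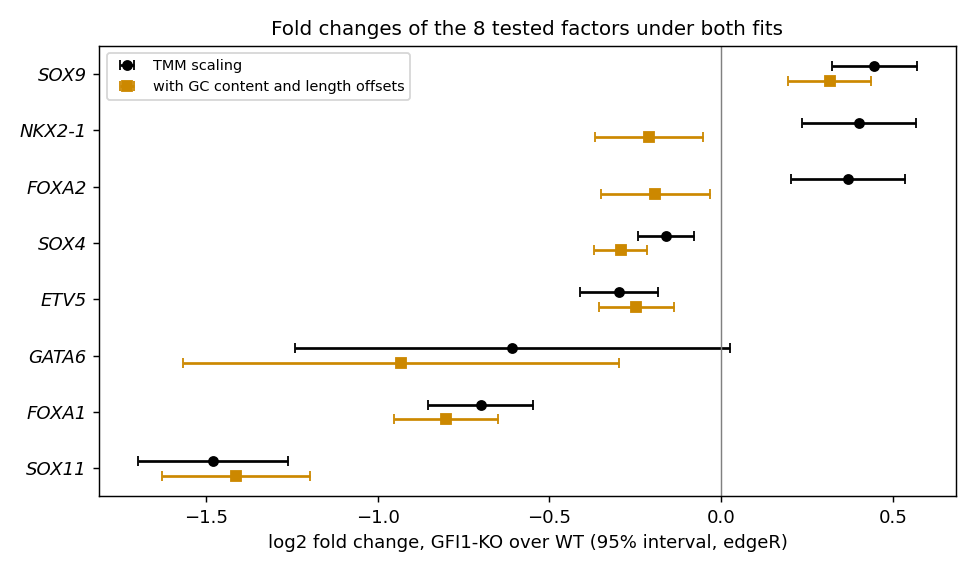
Log2 fold change of GFI1-KO over WT (horizontal axis) for the 8 tested lung lineage factors, with 95% intervals from edgeR. Black circles are the fit with TMM scaling and orange squares the fit with offsets for GC content and length. NKX2-1 and FOXA2 lie at 0.40 and 0.37 in one fit and at -0.21 and -0.19 in the other, whereas SOX11 lies at -1.48 and -1.41.

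The levels of the factors were next ranked per length, as CPM per kilobase of gene model. In WT, SOX4 was highest at 27.1 ± 1.03 (SD, n = 3), followed by FOXA2 at 19.1 ± 3.44. ETV5 at 10.3 ± 0.546 overlapped both SOX9 at 9.98 ± 0.185 and FOXA1 at 9.47 ± 0.289, so ETV5 could not be ordered against either, while SOX9 lay above FOXA1 without overlap. Below these came NKX2-1 at 7.84 ± 0.915 and SOX11 at 3.04 ± 0.400. GATA6 at 0.422 ± 0.0747, TP63 at 0.0483 ± 0.0244 and SOX2 at 0.00845 ± 0.0146 were the lowest. In GFI1-KO the top of this order was shared by FOXA2 at 24.4 ± 1.57 and SOX4 at 24.0 ± 0.849, whose ranges overlapped. SOX9 at 13.4 ± 0.896, NKX2-1 at 10.2 ± 0.843, ETV5 at 8.31 ± 0.235 and FOXA1 at 5.76 ± 0.654 followed without overlap. FOXA1 was thus above NKX2-1 in WT and below it in GFI1-KO on this scale, an order that carries the GC trend. Such levels rest on 1 length per gene and do not take isoforms into account.

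Paralogues showed how far these changes ran through the families. Of 30 paralogues in the NKX2, FOXA, SOX, GATA, TP63 and PEA3 families, 19 could be tested, of which 11 were higher, 5 lower and 3 not called, with a median log2 fold change of 0.39. With the offsets 7 were higher and 8 lower and the median was -0.24, so the split was not stable. Among NKX2 genes, NKX2-2, a factor of neural and pancreatic development, fell from 38.5 ± 2.56 to 5.06 ± 2.39 normalized counts (log2 fold change -2.90, edgeR adjusted p = 9.7e-08), while NKX2-3 rose from 17.4 ± 5.18 to 53.7 ± 4.03 (log2 fold change 1.62, edgeR adjusted p = 4.8e-06). Both held their direction with the offsets, at -3.39 and 0.91. NKX2-5, the cardiac factor, had 607 ± 28.6 normalized counts in WT and a log2 fold change of -0.42, which was -1.22 with the offsets (edgeR adjusted p = 6.6e-14). NKX2-4, the closest paralogue of NKX2-1, had a log2 fold change of 0.31 that turned to -0.47 with the offsets, as NKX2-1 did. NKX2-4 was not called with DESeq2 (adjusted p = 0.085) or without WT replicate 3 (0.17) or GFI1-KO replicate 1 (0.27).

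In the SOX family SOX18 rose from 296 ± 29.0 to 622 ± 29.2 normalized counts (log2 fold change 1.07, edgeR adjusted p = 1.6e-12; 0.22 with the offsets). SOX15 and SOX21 rose from low levels, by 1.74 and 2.09 on the log2 scale (1.06 and 1.70 with the offsets). SOX21 had 4, 4 and 1 counts in WT and passed the filter through its GFI1-KO counts, so the size of its change is uncertain. SOX1, a SOXB1 factor like SOX2, fell from 67.7 ± 12.9 to 39.8 ± 2.59 normalized counts (log2 fold change -0.76, edgeR adjusted p = 0.0019; -1.16 with the offsets). SOX13 had a log2 fold change of 0.26 that turned to -0.24 with the offsets. It was not called with DESeq2 (adjusted p = 0.078) or without WT replicate 3 (0.19) or GFI1-KO replicate 2 (0.20). SOX6 did not pass at 0.39 but was called higher with the offsets (0.80, edgeR adjusted p = 0.043), and SOX7 passed in neither fit (-0.15 and -0.36).

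Among GATA genes, GATA2, a factor of blood and neural lineages, rose from 312 ± 15.3 to 892 ± 12.6 normalized counts (log2 fold change 1.51, edgeR adjusted p = 3.8e-17; 0.96 with the offsets). GATA4 had a log2 fold change of 0.49 that became -0.04 with the offsets, and GATA5 fell from 19.5 ± 6.28 to 4.74 ± 2.85 normalized counts (log2 fold change -2.01, edgeR adjusted p = 3.6e-04). TP73, unlike TP63, was well detected and rose from 678 ± 42.2 to 1123 ± 59.0 normalized counts (log2 fold change 0.73, edgeR adjusted p = 1.6e-11; 0.21 with the offsets).

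**Figure D4:**
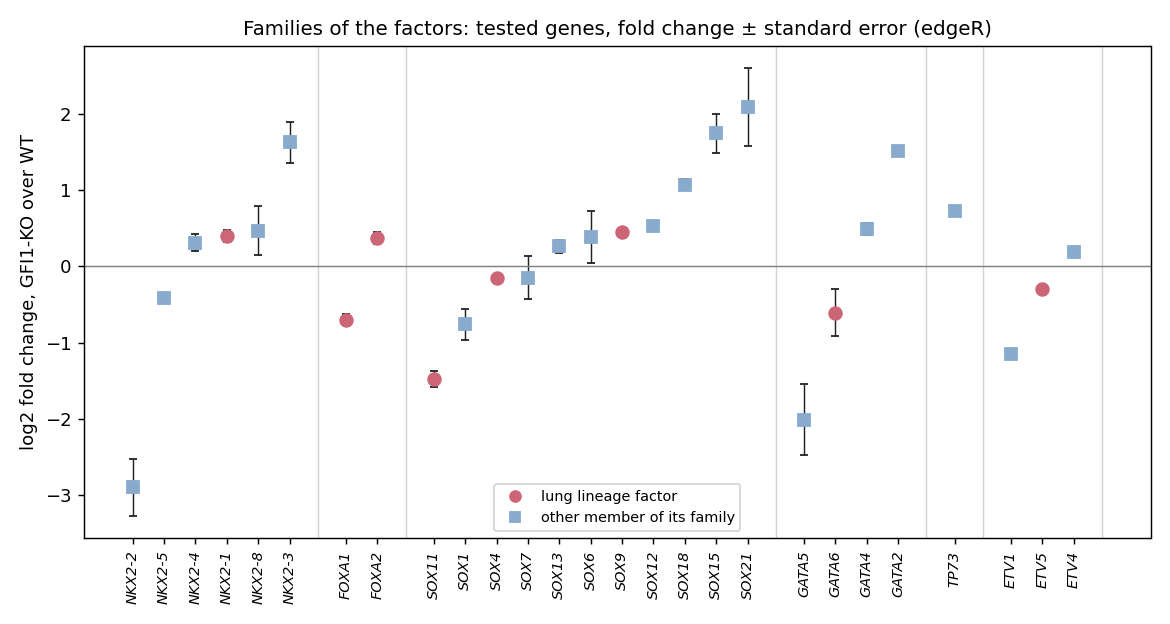
Log2 fold change of GFI1-KO over WT (vertical axis) for the tested genes of the NKX2, FOXA, SOX, GATA, TP63 and PEA3 families, each set off by a grey line, with the standard error from edgeR. Red circles are the lung lineage factors and blue squares their paralogues. Each family with 2 or more tested genes holds genes on both sides of 0, under TMM scaling.

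The other PEA3 factors and the feedback inhibitors that ERK signalling switches on formed a list of 9 genes, all tested, of which 3 were higher, 5 lower and 1 not called (2 higher and 5 lower with the offsets). ETV1 fell from 2620 ± 66.2 to 1176 ± 5.0 normalized counts (log2 fold change -1.16, edgeR adjusted p = 5.8e-19; -0.57 with the offsets). ETV4 had a log2 fold change of 0.19 that turned to -0.41 with the offsets. It was not called with DESeq2 (adjusted p = 0.078) or without WT replicate 2 (0.15) or GFI1-KO replicate 2 (0.16). SPRY1 fell by 1.75 on the log2 scale and SPRY4 rose by 0.93, while SPRY2 passed in neither fit (-0.09, and -0.13 with the offsets). The MAP kinase phosphatase DUSP6 fell from 2541 ± 80.9 to 2147 ± 39.7 normalized counts (log2 fold change -0.24; -0.15 with the offsets). DUSP4 was at 5202 ± 63.2 and 5629 ± 156, a call at 0.11 that was lost with the offsets (0.05, edgeR adjusted p = 0.18). SPRED1 had a log2 fold change of -0.34 that turned to 0.27 with the offsets. These genes did not share a direction, and the median log2 fold change was -0.13.

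Genes that the lung lineage factors are known to regulate were then examined. Of 16 alveolar genes, many of them targets of NKX2-1 and FOXA factors, 8 could be tested, with 1 higher, 3 lower and 4 not called (median log2 fold change -0.05). With the offsets 0 were higher and 6 lower, and the median was -0.45. LAMP3, a lamellar body protein of alveolar type II cells, fell from 204 ± 20.3 to 85.0 ± 11 normalized counts (log2 fold change -1.26, edgeR adjusted p = 3.1e-09). RTKN2, a marker of alveolar type I cells, fell from 1791 ± 7.13 to 733 ± 13.2 (log2 fold change -1.29, edgeR adjusted p = 1.1e-18; -0.66 with the offsets). SFTPA2, a surfactant protein gene, had a log2 fold change of -0.40 (-0.67 with the offsets), but its transcripts share 21.0% of their 50-base words with other genes and its count is uncertain. ABCA3, the surfactant lipid transporter, had means of 1792 ± 25.4 and 1718 ± 27.6 normalized counts and did not pass (log2 difference -0.06, edgeR adjusted p = 0.17), although it was lower with the offsets, at -0.55. LPCAT1 was called higher at 0.11, which turned to -0.08 with the offsets and was not called without WT replicate 1 (0.09) or WT replicate 2 (0.09).

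Airway and basal genes were mostly near 0. Of 8 airway secretory genes 2 could be tested and 4 had no count, among them SCGB1A1, the club cell secretoglobin. MUC5B, a gel-forming mucin, fell from 103 ± 11 to 14.9 ± 9.20 normalized counts (log2 fold change -2.78, edgeR adjusted p = 6.2e-10), and MUC5AC did not pass (-0.32), although it was called lower with the offsets (-0.77, edgeR adjusted p = 0.0094) and without GFI1-KO replicate 1 (-0.69). Of 12 basal and squamous genes, which TP63 is known to control, 2 could be tested, and FAT2 fell from 66.4 ± 12.1 to 29.6 ± 8.08 (log2 fold change -1.16, edgeR adjusted p = 9.1e-05), whereas NGFR did not pass (-0.41), although it was called lower with the offsets (-1.06, edgeR adjusted p = 6.6e-04) and without WT replicate 1 (-0.61). Both called genes of these lists were thus lower in GFI1-KO, and with the offsets all 4 tested genes were.

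Of 11 gut and liver endoderm genes, which NKX2-1 is known to hold down in lung tumour cells, 4 could be tested, with 2 higher and 2 lower (1 and 2 with the offsets). CDX2 rose from 38.5 ± 3.59 to 84.6 ± 7.04 normalized counts (log2 fold change 1.13, edgeR adjusted p = 7.3e-06; 0.60 with the offsets). PDX1 had a log2 fold change of 0.62, which was 0.06 and not called with the offsets. TFF3 fell from 243 ± 30.3 to 140 ± 15.0 normalized counts (log2 fold change -0.79, edgeR adjusted p = 8.5e-07), and TFF1 fell by 0.94 on the log2 scale (-1.42 with the offsets), a call that was lost with DESeq2 (adjusted p = 0.082) and without WT replicate 1 (-0.78), WT replicate 2 (-0.72) or GFI1-KO replicate 2 (-0.82). The intestinal regulator and the trefoil factors therefore moved in opposite directions.

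Neuroendocrine lineage factors were compared as a list of 9, of which 8 could be tested, with 1 higher and 7 lower and a median log2 fold change of -0.36. With the offsets 1 was higher and 6 were lower. Among all tested genes 36.5% were higher and 35.9% lower, and 32.5% and 28.2% with the offsets. POU3F2 fell from 257 ± 32.2 to 30.6 ± 6.12 normalized counts (log2 fold change -3.06, edgeR adjusted p = 2.7e-15), and PROX1 from 467 ± 14.2 to 161 ± 17.6 (log2 fold change -1.54, edgeR adjusted p = 2.6e-14). ISL1 was the 1 gene that was higher, from 5.90 ± 5.56 to 19.9 ± 4.23 normalized counts (log2 fold change 1.71, and 2.82 without WT replicate 1). With 12, 3 and 2 counts in WT, ISL1 passed the filter through its GFI1-KO counts, and the size of its change is uncertain. NEUROD1 and INSM1 stayed abundant, with NEUROD1 at 5905 ± 97.8 and 4476 ± 116 and INSM1 at 6974 ± 265 and 6579 ± 251 normalized counts. NEUROD1 had a log2 fold change of -0.40 (edgeR adjusted p = 2.7e-11), which was -0.07 with the offsets (edgeR adjusted p = 0.044). The INSM1 difference, -0.08 on the log2 scale, was lost with DESeq2 (adjusted p = 0.051) and without any of WT replicates 1 and 2 and GFI1-KO replicates 2 and 3, at -0.10 to -0.05, whereas with the offsets it was -0.79 (edgeR adjusted p = 2.3e-16). HES6 had a log2 fold change of -0.55, and -1.38 with the offsets.

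The labelled cell type was checked with marker lists. All 8 neuroendocrine markers were detected, 6 higher and 2 lower (3 and 3 with the offsets), with summed normalized counts of 20470 to 21012 in WT and 29809 to 31107 in GFI1-KO. SYP rose from 4221 ± 55.5 to 9759 ± 217 and NCAM1 from 1897 ± 6.04 to 4112 ± 39.6, while DDC fell from 237 ± 23.3 to 24.6 ± 11.6 normalized counts. CHGA and CHGB were higher by 0.67 and 0.63 on the log2 scale, although CHGA was at 0.00 with the offsets. ENO2 and UCHL1 turned from 0.16 and 0.14 to -0.15 and -0.42 with the offsets.

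Of 6 epithelial markers 5 could be tested, with 1 higher and 2 lower (1 and 4 with the offsets). EPCAM fell by 2.23 and CDH1 by 2.31 on the log2 scale from low levels, and KRT8, of whose 50-base words 10.1% occur in other genes, was at 2277 ± 62.3 and 3105 ± 109 normalized counts (log2 fold change 0.45; 0.14 with the offsets). Of 7 fibroblast markers 2 were higher and 3 lower, and their summed normalized counts were 3143 to 3227 in WT and 2235 to 2313 in GFI1-KO. COL1A2 was the most abundant and fell from 2912 ± 49.6 to 2008 ± 43.1 (log2 fold change -0.54; -0.14 with the offsets). COL1A1 had a log2 fold change of -0.41 (-0.92 with the offsets), not called with DESeq2 (adjusted p = 0.085) or without GFI1-KO replicate 3 (-0.34). COL3A1 rose from 2.49 ± 0.721 to 139 ± 18.8 and PDGFRB fell from 141 ± 1.41 to 14.8 ± 1.17. PDGFRA, of whose 50-base words 15.4% occur in other genes, rose from 1.08 ± 1.11 to 14.8 ± 1.54. COL3A1 and PDGFRA, the 2 higher genes, passed the filter through their GFI1-KO counts. The size of their changes rests on WT counts near the limit, 2, 3 and 2 for COL3A1 and 1, 2 and 0 for PDGFRA. DCN had no count. The 5 immune markers summed to 2.86 to 8.47 normalized counts in any library. Of 4 endothelial markers 2 could be tested, with PECAM1 lower (455 ± 29.2 against 209 ± 7.91 normalized counts) and CDH5 called in neither fit (0.47, and 0.24 with the offsets). The part of these marker genes in the results on the lineage factors was not tested.

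For each tested factor the 3 protein-coding genes nearest in pattern were sought among 11221 genes, by the Euclidean distance of mean-centred log2 CPM over the 6 libraries. For SOX11 these were ZNF8 (distance 0.163), GRK4 (0.189) and PROX1 (0.229), and PROX1 belongs to the neuroendocrine list above. FOXA1 was closest to C4orf46, ARHGAP21 and LRR1, at 0.115 to 0.119. SOX9 was closest to TST, IFNGR2 and RNF113A, at 0.0551 to 0.0679, and ETV5 to CLCC1, MCPH1 and RPL4, at 0.0493 to 0.0561. NKX2-1 was nearest to APOPT1, PLD2 and P2RX4, at 0.106 to 0.114, and FOXA2 to TESK2, PTPN6 and APBB3, at 0.0830 to 0.153. SOX4 was nearest to ALKBH1, ARHGEF6 and ADAMTS7, at 0.0384 to 0.0418. GATA6 had the most distant neighbours, ALG9, SFMBT2 and GRPEL2, at 0.283 to 0.343. With 6 libraries in 2 groups, such a distance mainly reflects the difference between the groups, and it is given as a description.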

How the data were processed

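RNA of H1155 cells was sequenced by the authors after poly-T selection, and the deposited table holds raw read counts per gene for 3 WT and 3 GFI1-KO libraries. The study's methods name Hisat2, featureCounts and GRCh38/hg38, whereas the submitters' processing notes list Bowtie2, HTSeq and hg38, so the tool that made the counts is not settled. The annotation release, the use of strand and the rule for multimapping reads were not given in the sources used here. The deposited counts were analysed in edgeR 4.0.16 (R 4.3.3) by the quasi-likelihood F test, with TMM factors, filterByExpr and p-values adjusted by Benjamini-Hochberg over 17514 genes, at an adjusted p of at most 0.05, after tests on simulated data. A gene low in 1 group could pass the filter through the counts of the other, which leaves the size of its change uncertain. Normalized counts are counts scaled to the mean effective library size. GC content came from the longest GENCODE transcript of each gene, matched by gene ID, and length from the deposited gene lengths. Both entered as spline offsets of 5 degrees of freedom. DESeq2 1.42.0 and limma 3.58.1 were run as alternatives. Of 5 listed pairs of factors, 2 were tested as ratios, because SOX2 and TP63 were too low for the others. The lung lineage factors and all gene lists were chosen with earlier results of these data known, and some genes of the lists are not reported here. Text names the factors, GFI1, tested neighbours within 100 kb, the 3 nearest genes in pattern and, of each list, up to 5 called genes with the largest change and up to 3 of the highest level, all of which pass the filter. Other paralogues, NKX2-1-AS1, AL132857.1, SOX2-OT, SCGB1A1 and DCN were added after their values were seen. SPRY2 and NFIB lie outside this rule as well, and their values without single libraries are not given. Same-numbered WT and GFI1-KO libraries did not deviate together (r between -0.003 and 0.023), so the numbers do not pair them. Totals of 14882914 to 17692882 counts leave little counting error for the abundant factors. The intervals of log2 fold changes come from the edgeR fit and include the spread between these libraries. The limits cover counting error only.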

Additional observations from a re-analysis of the deposited data

How the results depend on the processing

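Alternatives were DESeq2, limma-voom, other scaling factors, other low-count filters, a stricter threshold, a replicate block, GC and length offsets, and leaving out each library. The offsets had the largest effect. With them, alone or with the replicate block, 1 lung lineage factor was called higher instead of 3 and 7 were called lower instead of 4, and their median log2 fold change was -0.27 (-0.27 also with upper-quartile factors). Log2 fold changes reversed, with nearly the same values alone and with the block, for NKX2-1 (-0.21), FOXA2 (-0.19), NKX2-4 (-0.47, and -0.46 with the block), GATA4 (-0.043, and -0.045 with the block), SOX12 (-0.078, and -0.077), SOX13 (-0.24), ETV4 (-0.41), LPCAT1 (-0.076, and -0.075), ENO2 (-0.15), UCHL1 (-0.42), ONECUT2 (0.072, and 0.073) and SPRED1 (0.27). The block alone changed none of 87 named calls and left 3 factors higher and 4 lower, with a median of -0.23. NEUROD1 lost its call with the offsets and the block together (-0.07). No other alternative reversed a called gene. Leaving out each library kept 3 factors higher and 4 lower, with a median of -0.27 to -0.20. The log2 difference of the FOXA1 to FOXA2 ratio was -1.17 to -0.95 and that of SOX4 to SOX11 1.21 to 1.41. FOXA2 was 0.22 without WT replicate 3, and GFI1 0.21 (edgeR adjusted p = 0.15) without WT replicate 2. GFI1 was also not called with DESeq2 (adjusted p = 0.13). Depth limits SOX2, TP63 and GATA6.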

Other observations

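Other regulators of the lung epithelium were measured besides the lineage factors. Of 19 such genes 15 could be tested, with 8 called higher and 5 called lower (median log2 fold change 0.60). With the GC and length offsets 6 were higher and 5 lower (median 0.04). ID2, an inhibitor of basic helix-loop-helix factors that marks the distal tip, rose from 1595 ± 120 to 5518 ± 57.5 normalized counts (SD, n = 3; log2 fold change 1.79, edgeR adjusted p = 1.5e-22; 1.5 with the offsets). TBX2 rose from 490 ± 9.57 to 1931 ± 109 (log2 fold change 1.98, edgeR adjusted p = 3.7e-21; 1.44 with the offsets), and KLF5 from 781 ± 38.7 to 1470 ± 83.5 (log2 fold change 0.91; 1.03 with the offsets).

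IRX2 and GRHL2 rose from low levels, IRX2 from 29.9 ± 9.75 to 95.7 ± 16.4 and GRHL2 from 2.45 ± 1.54 to 13 ± 1.47 normalized counts. GRHL2 passed the filter through its GFI1-KO counts, and the size of its change rests on 4, 2 and 1 counts in WT. MYCN, which keeps distal progenitors dividing, fell from 309 ± 6.89 to 109 ± 4.94 (log2 fold change -1.51, edgeR adjusted p = 4.9e-13; -1.97 with the offsets). NFIB fell from 1183 ± 59.4 to 663 ± 9.85 normalized counts (log2 fold change -0.84, edgeR adjusted p = 2.4e-13; -0.37 with the offsets).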
